A study of Mus musculus with 2 samples.

Results

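AP-1 (activator protein 1) is a dimeric transcription factor assembled from proteins of the Fos, Jun, ATF and BATF families. The 10 genes examined here were taken by name and are Fos, Fosb, Fosl1, Fosl2, Jun, Junb, Jund, Atf3, Batf and Batf3. All 10 were found by NCBI gene number among the 15623 genes listed in 1 or both libraries. RNA was sequenced from thioglycolate-elicited peritoneal macrophages of wild type, young adult C57BL/6 mice. These macrophages are recruited to the cavity by the irritant, and they were enriched by adherence. Both groups were starved in low-serum medium, and RNA was then taken from cells without treatment (NT) or after 6 h of mouse IL-4, the cytokine of type 2 immunity that polarizes macrophages to the alternative (M2) state. Each group held 1 library, and whether animals were pooled was not given in the sources used here. No difference below therefore has a replicate check, and each test compares the reads of 2 libraries, not the conditions.

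Proteins of this group bind DNA through a basic region and pair through a leucine zipper, the so-called bZIP domain. Fos proteins do not pair with each other and need a Jun partner, whereas Jun proteins can also pair among themselves. ATF3 is induced by stress and by Toll-like receptor signals and restrains inflammatory genes in macrophages. BATF and BATF3 lack a classical activation domain, pair with Jun proteins and bind composite sites together with IRF4 or IRF8, and BATF3 is best known for the development of conventional dendritic cells that cross-present antigen.

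The NT library held 11035641 expected counts (the RSEM estimate of the reads of each gene) and the IL-4 library 11250099. A floor of 3 counts corresponded to 0.272 and 0.267 CPM (counts relative to the library total). In the labels the source is peritoneal macrophages but the tissue is bone marrow. All 9 macrophage markers examined were detected, and their summed level was 17430 CPM in NT and 17744 CPM in IL-4, with Csf1r called higher and Cd14 called lower. The 6 conventional dendritic cell markers, which matter for Batf3, summed to 3.07 CPM in NT and 2.89 CPM in IL-4. Markers of B cells summed to 9.61 and 8.62 CPM, those of T and NK cells to 4.14 and 2.77 CPM, those of neutrophils to 3.26 and 1.87 CPM, those of eosinophils and mast cells to 7.52 and 4.09 CPM, and those of mesothelium and fibroblasts to 151 and 122 CPM. S100a9, Ly6g and Mpo of neutrophils and Epx of eosinophils were listed in neither table, and whether these genes were counted is not given in the sources used here. Trac of T cells was likewise not among the genes tested, and the T and NK sum covers 6 of 7 markers. Of the markers of cells other than macrophages, Siglecf of eosinophils (53 counts in NT and 27 in IL-4, log2 ratio -0.99) was called lower. Msln of mesothelium (12 and 2 counts, -2.35) was called lower too, and none of these markers was called higher. The part of such cells in the results was not tested. In these bulk libraries fewer cells of a type and less RNA per cell cannot be told apart. Intervals cover counting error only, since without molecular identifiers reads may be copies of 1 molecule.

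The promoters of the members were examined in the 250 bases before the annotated start of each gene (RefSeq, GRCm38.p6). Sequences were matched for 9 members. The window of Fosb (19310046 to 19310295, minus strand) is an exception. It overlaps the annotated gene (19302696 to 19310118) and so does not lie wholly before its start. Those of Batf3 and Atf3 are shown because these members were called, and those of Fos and Jun because their levels were close to equal. Capitals mark the motif matches named beneath, other than GC boxes.
Batf3 (chr1:191098164-191098413, plus strand): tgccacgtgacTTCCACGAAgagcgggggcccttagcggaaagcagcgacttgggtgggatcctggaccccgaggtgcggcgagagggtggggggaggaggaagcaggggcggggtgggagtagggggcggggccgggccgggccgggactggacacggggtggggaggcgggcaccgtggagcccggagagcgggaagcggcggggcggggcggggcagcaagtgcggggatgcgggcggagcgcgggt
Atf3 (chr1:191183334-191183583, minus strand): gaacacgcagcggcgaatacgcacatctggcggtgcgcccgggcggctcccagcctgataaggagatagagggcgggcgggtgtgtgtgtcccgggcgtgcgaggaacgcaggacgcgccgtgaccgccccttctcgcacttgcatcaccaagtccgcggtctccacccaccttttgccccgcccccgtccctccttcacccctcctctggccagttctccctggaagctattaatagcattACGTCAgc
Fos (chr12:85473640-85473889, plus strand): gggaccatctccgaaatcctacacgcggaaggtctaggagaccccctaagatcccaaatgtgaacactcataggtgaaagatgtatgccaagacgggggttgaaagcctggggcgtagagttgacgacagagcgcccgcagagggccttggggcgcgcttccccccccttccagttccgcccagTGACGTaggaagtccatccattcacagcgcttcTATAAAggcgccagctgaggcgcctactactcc
Jun (chr4:95052223-95052472, minus strand): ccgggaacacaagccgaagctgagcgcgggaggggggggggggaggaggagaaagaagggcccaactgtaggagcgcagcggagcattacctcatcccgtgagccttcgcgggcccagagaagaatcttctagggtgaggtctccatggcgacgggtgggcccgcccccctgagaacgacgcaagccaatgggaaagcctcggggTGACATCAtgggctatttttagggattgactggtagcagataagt

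The capitals in Batf3 are a match to the STAT-type pattern TTCNNNGAA, 239 to 231 bases before the start. Those in Atf3 are a CRE core (TGACGT, here on the opposite strand) 8 to 3 bases before the start. Fos had the same core at 66 to 61 bases and a TATA box (TATAAA) at 33 to 28 bases before the start. Jun had TGACATCA, a variant AP-1 site, at 45 to 38 bases. All motifs were searched on both strands, and a full CRE (TGACGTCA) also counts as a core.

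Among the 9 member promoters, 3 held the CRE core (Fos, Atf3 and Batf), compared with 6.56% of 27025 promoters of the same length. The GC box GGGCGG was present in 7 of the 9 and in 32.9% of all promoters. The Batf3 window had a GC content of 76.0% against a median of 52.0% over all promoters. The other member windows ran from 46.4% (Batf) to 68.8% (Fosb), and only Batf and Jund (47.6%) lay below that median. The motif shares of all promoters were not matched to the members on GC content. The STAT-type pattern was held by 7.18% of all promoters, and Batf3 was the 1 member with it. The Jun variant site was held by 3.02% and the TATA box by 13.0% of all promoters. The AP-1 site TGANTCA (6.87% of all promoters), the full CRE (1.62%), the STAT6-type pattern, in which TTC and GAA lie 1 base further apart (5.86%), and the CArG box (1.40%) had no match in the 9 windows. A match here describes letters and not a bound site.

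Upon IL-4 stimulation, 2 of the 10 members were called higher and 0 were called lower. Over all 15593 genes tested with the same rule, 4.07% were called higher and 6.28% lower. Calls followed the limits that the study gives for its IL-4 comparison. They were a log2 ratio (IL-4 over NT) of 0.75 or more in size, an exact p up to 0.05 and a Benjamini-Hochberg (BH) adjusted p up to 0.5. The methods of the study also give a rule of more than 1.5-fold at a false discovery rate of 0.05. With a BH-adjusted p up to 0.05, that rule called 4 members and 4.84% of all genes higher. The called members were Batf3 and Atf3. The median log2 ratio of the 10 members was 0.53, and that of all genes tested was -0.03. The 8 members with at least 50 counts in the library with more had a median of 0.55, against -0.01 over all such genes. The counting interval lay above 0 for 6 members (Fosl2, Batf, Jund and Junb beside the called ones), all of them among these 8. It lay above 0 for 17.9% of all genes tested and for 26% of genes with at least 50 counts.

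**Figure D1:**
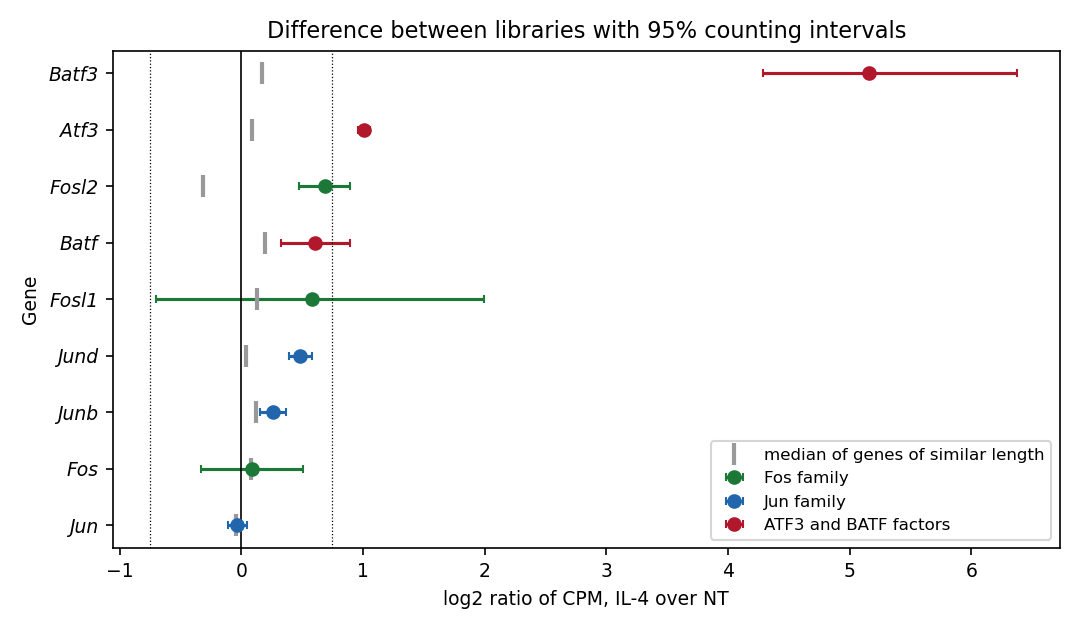
Log2 ratio of CPM (IL-4 over NT, x axis) of 9 members (y axis), with exact 95% counting intervals as bars and the call threshold of 0.75 as dotted lines. Grey ticks are the median ratio of genes of similar transcript length, and Fosb is left out because it had 1 count in each library. Batf3 (5.16) and Atf3 (1.01) lie beyond the threshold, and Jun (-0.03) lies at 0.

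Batf3 (gene 381319, chromosome 1, 191098414 to 191108943) had 9 expected counts in NT and 345 in IL-4, or 1.19 and 44.56 FPKM (counts scaled for transcript length and depth). It was thus close to the floor in NT cells and plainly present after IL-4. The log2 ratio of Batf3 was 5.16 (interval 4.29 to 6.37), or 35.7-fold (19.6-fold to 82.9-fold). The exact binomial test over all genes gave a BH-adjusted value of 2.14e-86. By ratio Batf3 ranked 17 among the 9925 genes with at least 50 counts in the library with more. By FPKM it moved from rank 10282 to rank 1649 of all listed genes. Xcr1 and Clec9a, markers of the dendritic cells that depend on Batf3, had 15.83 and 4 counts in NT and 14.50 and 0 in IL-4, so these markers were few in both libraries.

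Atf3 (gene 11910, chromosome 1, 191170296 to 191183333) had 4981 expected counts in NT and 10192 in IL-4, or 227.95 and 457.28 FPKM. It was the most abundant of the 10 members in each library, and the library with IL-4 held about 2.01-fold more (1.94-fold to 2.08-fold). The log2 ratio of 1.01 had an interval from 0.96 to 1.05, entirely beyond the threshold. Its rank by FPKM over all listed genes was 286 in NT and 162 in IL-4. With a biological coefficient of variation of 0.2 assumed between libraries (edgeR exact test), the BH-adjusted value of Atf3 was 0.366 and that of Batf3 1.32e-15. Atf3 was thus still called under the main rule, but its value lay above a BH limit of 0.05. The share of all genes called at a coefficient of 0.2 is not given here. The call of Atf3 was lost when a coefficient of 0.4 was assumed (same test, BH-adjusted value 1), whereas Batf3 was still called. Under that assumption 0.417% of all genes were called higher.

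Batf (gene 53314, chromosome 12, 85686720 to 85709087) had 170 counts in NT and 264 in IL-4, or 17.44 and 26.55 FPKM. Its log2 ratio of 0.61 did not pass the threshold, although the interval from 0.32 to 0.89 lay above 0. Batf was thus 14.7 times as abundant per length as Batf3 in NT, whereas in IL-4 the level of Batf3 exceeded that of Batf by 1.68-fold. The separation of both genes in each library was larger than their counting intervals. Batf2, a further BATF protein, had 23 and 33 counts and was not called.

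**Figure D2:**
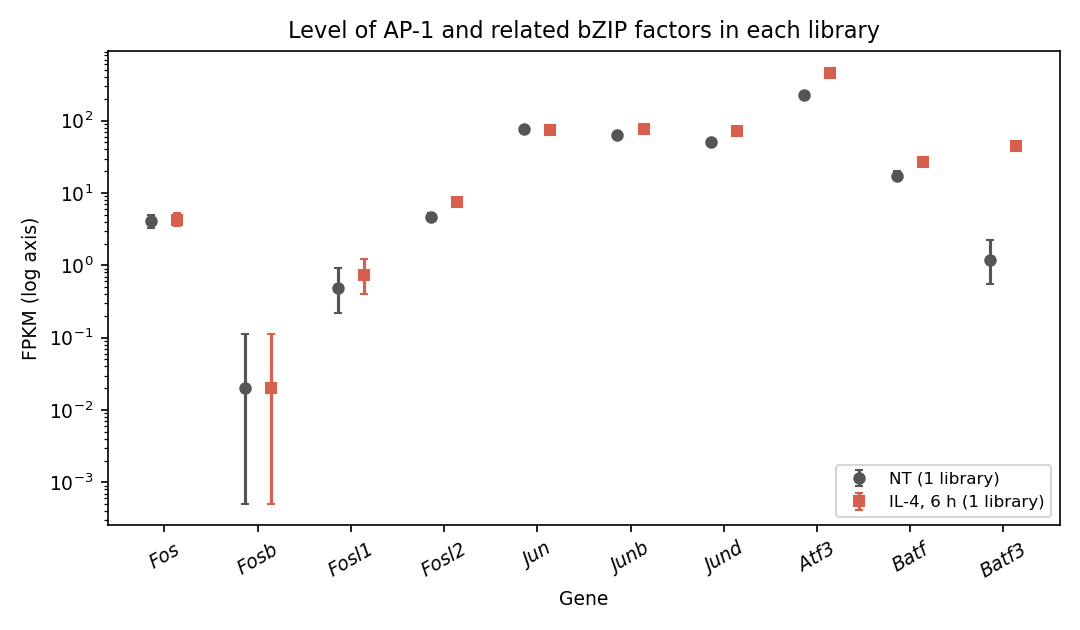
FPKM of the 10 members (y axis, log scale) in the NT library (circles) and the IL-4 library (squares), with exact 95% Poisson counting intervals as bars and 1 library per group. Batf3 moves from 1.19 to 44.56 FPKM, the Jun family stays between 50.70 and 76.21 FPKM, and Fosb lies at 0.02 FPKM in both libraries.

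No Fos family gene was called. Fosl2 (chromosome 5, 32136472 to 32157840), which encodes Fra-2, had 308 counts in NT and 505 in IL-4, or 4.69 and 7.53 FPKM. Its log2 ratio was 0.68, and the interval of 0.48 to 0.89 spanned the threshold. The call of Fosl2 turned on transcript length. The 200 genes nearest to its length of 5886 bases had a median log2 ratio of -0.31, and with this subtracted the ratio of Fosl2 was 0.997 (0.79 to 1.21), past the threshold. After this subtraction 4% of all genes were called higher. Fosl2 and Batf were also called under a rule of more than 1.5-fold and a BH-adjusted p up to 0.05, which called 4.84% of all genes higher.

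Fos (chromosome 12, 85473890 to 85477274), the prototype immediate early gene, had 94 counts in NT and 102 in IL-4, or 4.04 and 4.30 FPKM. A difference was not detectable at this depth, and the interval of its log2 ratio of 0.09 (-0.33 to 0.51) did not reach the threshold in either direction. Fosl1 (chromosome 19, 5447698 to 5455938), which encodes Fra-1, had 9 and 14 counts. Its log2 ratio of 0.58 had an interval from -0.70 to 1.999, too wide to place it on either side of the threshold. Fosb (chromosome 7, 19302696 to 19310118) had 1 count in each library, under the floor, so no ratio is given for it alone, and it enters the median of the 10 members at close to 0. Fosl2 made up 50.8% of the summed FPKM of the Fos family in NT and 59.9% in IL-4, and Fos 43.8% and 34.2%.

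The Jun family was expressed at a far higher level. Jun (chromosome 4, 95049036 to 95052222) had 2698 counts in NT and 2692 in IL-4, or 76.21 and 74.55 FPKM. Its log2 ratio of -0.03 had a narrow interval from -0.11 to 0.05. Junb (chromosome 8, 84976909 to 84978748) had 1277 and 1563 counts, or 63.01 and 75.61 FPKM, a log2 ratio of 0.26 (0.16 to 0.37). Jund (chromosome 8, 70697739 to 70700616) had 1628 and 2326 counts, or 50.70 and 71.02 FPKM, a log2 ratio of 0.49 (0.39 to 0.58). The intervals of Junb and Jund lay above 0 and below the threshold, and the intervals of the 3 Jun genes did not overlap each other.

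In NT cells the order by FPKM was Jun, Junb and Jund, each separated from the next by more than its counting interval. In IL-4 cells Junb, Jun and Jund followed each other with overlapping intervals, so their order there could not be told. Jun made up 40.1% of the summed Jun family FPKM in NT and 33.7% in IL-4, and Jund 26.7% and 32.1%. Summed FPKM of the Jun family was 189.92 in NT and 221.18 in IL-4, and that of the Fos family 9.23 and 12.58. Per length the Jun family thus exceeded the Fos family by 20.6-fold in NT and 17.6-fold in IL-4.

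Over all 10 members the order by FPKM in NT was Atf3, Jun, Junb, Jund, Batf, Fosl2, Fos, Batf3, Fosl1 and Fosb. Neighbours with overlapping intervals were Fosl2 and Fos, and Batf3 and Fosl1. In IL-4, Batf3 stood in place 5, behind the Jun genes and ahead of Batf. Atf3 made up 51.1% of the summed FPKM of the members in NT and 60.0% in IL-4, and Batf3 0.267% and 5.85%. In the order of log2 ratios, Batf3 and Atf3 were separated from each other and from all other members with at least 50 counts, whereas Fosl2, Batf, Fosl1 and Jund overlapped in sequence. The place of Atf3 depended on the length trend, and with it subtracted Atf3 (0.91, 0.86 to 0.96) lay below Fosl2 (0.997, 0.79 to 1.21) with overlapping intervals.

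**Figure D3:**
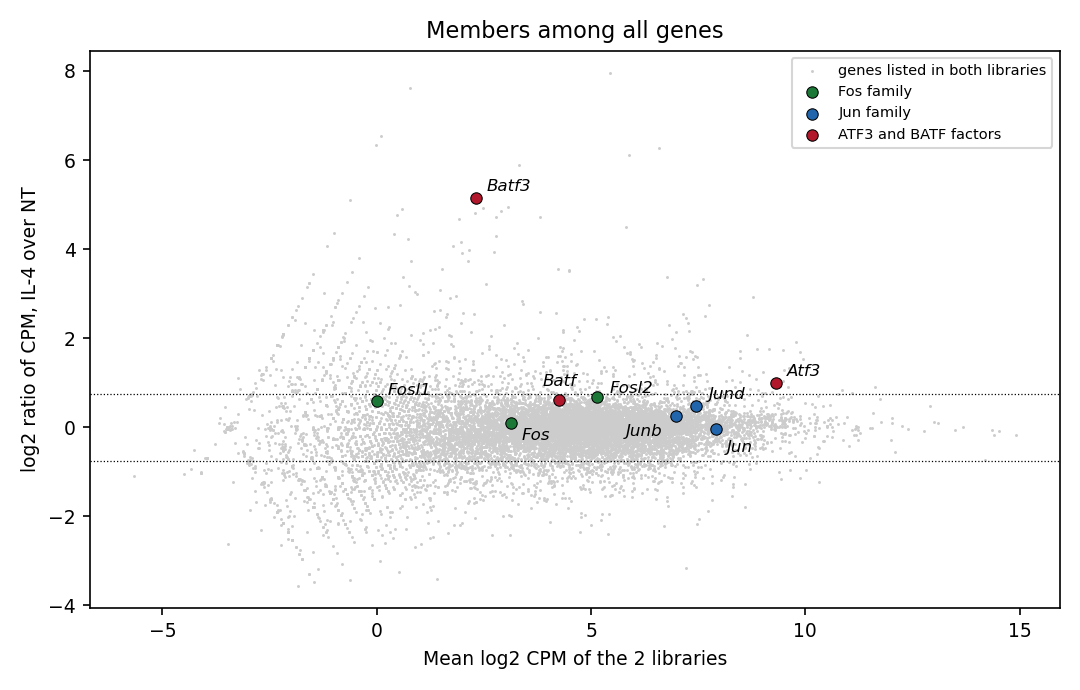
Log2 ratio of CPM (IL-4 over NT, y axis) against the mean log2 CPM of the 2 libraries (x axis) for the 13936 genes listed in both libraries (grey) and 9 members (coloured by family, Fosb left out at 1 count in each library), with the call threshold of 0.75 as dotted lines. Batf3 (5.16) lies among the highest ratios at its abundance, Atf3 (1.01) lies above the threshold at high abundance, and the other 7 members lie between the dotted lines.

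To place the members among their relatives, 42 other bZIP factors were examined, of which 8 were called higher and 2 lower (median log2 ratio 0.22). By FPKM Atf3 was first of these 52 bZIP factors in both libraries, at 15.4% of their sum in NT and 21.1% in IL-4. Atf4, a mediator of the integrated stress response, and Nfe2l2, the antioxidant regulator NRF2, followed it in both. Batf3 moved from place 41 to place 13.

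Of 20 ATF, CREB and JDP2 factors, 3 were called higher and 0 lower. Atf5 rose from 1306 to 2718 counts (log2 ratio 1.03), Xbp1, a factor of the unfolded protein response, from 1368 to 2373 (0.77), and Creb5 from 42.99 to 78.98 (0.84). Atf4 had 2880 and 4833 counts, a log2 ratio of 0.72 just under the threshold. Of 6 C/EBP factors, 2 were called higher and 0 lower. They were Cebpb, a regulator of M2 genes, with 1183 and 2084 counts (0.79), and Ddit3, which encodes the stress factor CHOP, with 436 and 984 counts (1.15). With the length trend subtracted, Xbp1 (0.70) and Cebpb (0.66) fell under the threshold. Atf5 (0.89), Creb5 (1.15) and Ddit3 (0.92) stayed past it.

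Of 12 MAF, NRF and BACH factors, 2 were called higher and 1 lower. Maff rose from 59 to 131 counts (log2 ratio 1.12), whereas Maf fell from 854 to 412 (-1.08). Expected counts of Maf were not whole, so they may include reads shared with other genes. The same holds for other genes named here, among them Creb5, Cebpb, Egr2 and Vegfa. Some of these counts are printed rounded. The other higher gene was Mafa, with 2 and 16 counts. Among Nfil3 and the 3 PAR bZIP factors, Nfil3, a repressor that competes for PAR sites, rose from 136 to 749 counts (2.43), and the clock output gene Dbp fell from 116 to 70 (-0.75), at the threshold. Among the 52 bZIP factors the ratio of Batf3 was the largest and that of Nfil3 was the largest after Batf3 and Mafa.

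**Figure D4:**
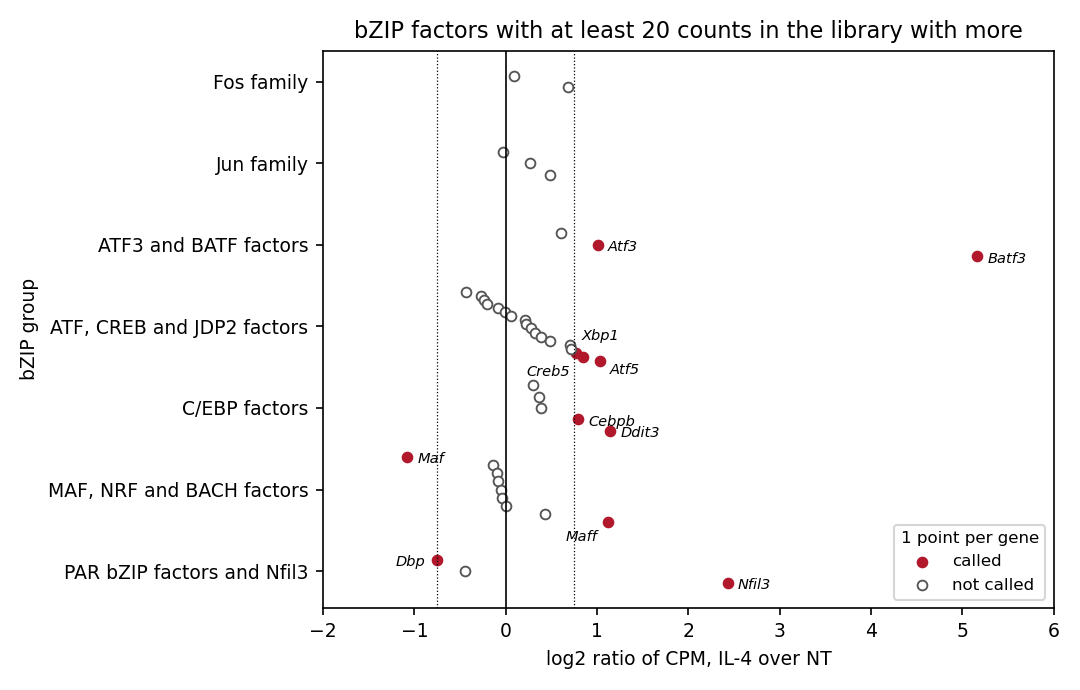
Log2 ratio of CPM (IL-4 over NT, x axis) of the 43 bZIP factors with at least 20 counts in the library with more, in 7 groups (y axis), with 1 point per gene, called genes filled and named, and the call threshold of 0.75 as dotted lines. Batf3 (5.16) stands apart from Nfil3 (2.43), the next ratio, and called genes occur in every group but the Fos and Jun families.

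IRF4 and IRF8 are the partners with which BATF proteins share composite sites. Irf4 rose from 30 to 820 counts, or from 0.57 to 15.40 FPKM, a log2 ratio of 4.72 (4.22 to 5.32). The intervals of Irf4 and Batf3 overlapped. Irf8 had 2180 and 1691 counts, a log2 ratio of -0.39 (-0.49 to -0.30), and was not called. Per length, Irf8 therefore still exceeded Irf4 in the IL-4 library (52.34 and 15.40 FPKM).

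Of 22 genes of the MAP kinase and SRF input to AP-1, 1 was called higher and 0 lower, with a median log2 ratio of -0.06. Map2k6, a p38 kinase kinase, rose from 20 to 58 counts (1.49). The 21 genes that were not called had log2 ratios from -0.74 (Elk4, an SRF partner) to 0.41 (Elk1, a further one), with the counting interval below 0 for 7 and above 0 for 5 of them. Of all genes with at least 50 counts in the library with more, 8818 were not called. The interval lay below 0 for 2198 of these and above 0 for 2151. None of 5 genes for the turnover of Jun proteins (Cop1, Det1, Fbxw7, Itch and Usp28) was called. The counting interval lay below 0 for 1 of them, Fbxw7 (log2 ratio -0.49, -0.67 to -0.30), and above 0 for 0.

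Of 22 other immediate early genes, 5 were called higher and 1 lower, with a median log2 ratio of -0.23. Ier3 rose from 60 to 728 counts (log2 ratio 3.56), Egr2 from 970 to 3225 (1.70), Myc from 102 to 313 (1.59), Klf4 from 169 to 458 (1.41) and Zfp36, which encodes the mRNA-destabilizing protein tristetraprolin, from 580 to 1033 (0.80). Nfkbiz fell from 103 to 36 (-1.53). Of the 16 genes that were not called, 7 had a counting interval below 0 and 3 had one above 0. Over all genes tested, 13979 were not called, of which 2200 had an interval below 0 and 2152 one above 0. With at least 50 counts in the library with more, these numbers were 8818, 2198 and 2151. With the length trend subtracted, Zfp36 (0.68) fell under the threshold, and Dusp1 (-0.752) passed it on the lower side.

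Of 19 genes with known AP-1 sites, 18 were tested, 4 were called higher and 2 lower, with a median log2 ratio of 0.29. Mmp13, a collagenase, rose from 15 to 455 counts (log2 ratio 4.85). Ccl2 rose from 39 to 198 (2.30), Timp1 from 12 to 57 (2.17) and Cd44 from 2753 to 5698 (1.02). Tnf fell from 99 to 44 (-1.19) and Vegfa from 602 to 289 (-1.08). Mmp12 was among the most abundant of the list, with 755 and 1170 FPKM, but its log2 ratio of 0.63 did not pass the threshold. These lists are described by counts only, and no count was tested against other genes.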

How the data were processed

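RNA of 1 NT and 1 IL-4 library was sequenced by BGI (Illumina HiSeq). Reads were aligned by the authors with Bowtie to GRCm38/mm10, and RSEM gave the gene values (versions not given in the sources used here), and no pooling of libraries is stated. The deposited expected counts are unscaled estimates of the reads of each gene, and all 10 members had whole values in both tables, so no division of their reads with other genes was seen. The deposited FPKM values are scaled for length and depth, with a lowest listed value of 0.01. A gene absent from a table was set to 0. The deposited length of each gene was used only for the length trend. Gene numbers were matched to symbols and coordinates with a RefSeq table of GRCm38.p6 (15587 of 15623 matched).

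Log2 ratios of IL-4 over NT were computed from CPM with 0.5 count added in each library. Expected counts were rounded, and 15593 genes with at least 1 read were compared by a conditional binomial test (exact, two-sided, the doubled smaller tail) with BH adjustment over all of them. Ratio intervals (95%) came from the Clopper-Pearson method on the share of reads in IL-4. Intervals of FPKM are exact Poisson intervals. Both cover counting error only. For the length trend, the median ratio of the 200 genes closest in length (each with 200 reads or more) was subtracted.

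Alternatives were scaling by median of ratios (DESeq2 1.42.0), by TMM (edgeR 4.0.16) or by the total less the 100 most abundant genes, and FPKM with 0.1 or 1 added, the edgeR exact test at a coefficient of variation taken as 0.2 or 0.4, other thresholds, a filter at 20 reads, and the length trend. The members and lists were chosen with earlier results of these data known. All 10 members are named. From each other list the called genes with at least 20 counts in the library with more are named, up to 6, with Irf4 and Irf8, and others are named after their values were seen. The procedure was tested on simulated counts that held counting error only, with planted changes larger than the call threshold. Variation between libraries and changes near the threshold were not tried. Python 3.11.15, scipy 1.17.1, pandas 2.3.3 and R 4.3.3 were used. Genes withheld from the gene lists are not reported here, and the list counts leave them out.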

Additional observations from a re-analysis of the deposited data

How the results depend on the processing

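No paired analysis was possible because there was 1 library per group. All alternatives were planned and run. With an assumed coefficient of variation of 0.2 (edgeR exact test), Batf3 and Atf3 kept their calls, but the BH-adjusted value of Atf3 was 0.366. No share of all genes called stands beside these 2 calls. With an assumed coefficient of 0.4 (same test), 1 member (Batf3) was called higher. Atf3, at an unchanged log2 ratio of 1.01, was not called there. Under the rule of more than 1.5-fold and a BH-adjusted p up to 0.05, 4 members were called higher, Fosl2 and Batf in addition. With the length trend subtracted, 3 members were called higher, Fosl2 (0.997, now above Atf3 at 0.91) in addition to Batf3 and Atf3. Under all settings the ratio of Batf3 ran from 4.38 (FPKM with 1 added) to 5.19 and that of Atf3 from 0.91 to 1.04, and neither reversed. The ratio of Jun ran from -0.05 to 0.01 and that of Fos from 0.01 to 0.13. The other scalings moved every ratio by at most 0.04 in size. Of 109 member ratios under the 11 alternatives, 105 kept their call, and the 4 exceptions are those of Atf3, Fosl2 and Batf given above. This tally does not measure robustness. The assumed variation, threshold and filter settings left each ratio unchanged, and the FPKM and length settings kept the main p-values. The median ratio of the members ran from 0.37 to 0.58. Depth limits Fosb and Fosl1, whose ratios could hardly be measured.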

Other observations

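The members lie in part in pairs on the genome. Batf3 and Atf3 are neighbours on chromosome 1, with 61352 bases between them, and both were called higher. Of the 22 other annotated genes within 250 kb of this pair, 11 had reads enough to be tested, of which 0 were called higher and 2 lower. The lower genes were Vash2, with 97 counts in NT and 36 in IL-4 (log2 ratio -1.45), and A230020J21Rik, with 223 and 126 counts (-0.85), both named after their values were seen. The next gene beside Batf3, Nsl1, had 18.58 and 17.60 counts, and Nenf, on the other side of Atf3, had 286 and 293 counts. The protein-coding gene between the pair, Fam71a, was listed in neither library.

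Fos and Batf lie on chromosome 12 with 209445 bases between them, and Jdp2, which encodes an AP-1 repressor, lies between them. Jdp2 had 247 counts in NT and 306 in IL-4, a log2 ratio of 0.28 (0.03 to 0.53), between those of Fos (0.09) and Batf (0.61), and none of the 3 was called. Of the 23 other genes within 250 kb, Jdp2 included, 10 were tested, 0 were called higher and 1 lower (Mlh3, with 165.71 and 94.53 counts, a log2 ratio of -0.83, named after its value was seen).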
